A study of Mus musculus with 13 samples.

Results

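p53, encoded by Trp53, and 9 of its best known transcriptional targets (Cdkn1a, Mdm2, Ccng1, Pmaip1, Bbc3, Bax, Phlda3, Sesn2, and Trp53inp1) were followed across 4 genotypes of mouse bone marrow progenitors. These 10 genes were taken by name from a table of raw read counts with 54838 genes, and all 10 were found and passed the filter on low counts. RNA had been sequenced from 50000 sorted Lin- cKit+ bone marrow cells of each of 13 mice. This fraction lacks the surface markers of mature blood cells and holds the hematopoietic stem and progenitor cells (HSPCs).

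All mice carried Mx1-Cre, a recombinase driven by a promoter that answers to interferon. The 3 control mice carried no other allele. The 3 p53mut mice also carried p53 R172H/+ and the 3 NrasG12D mice Nras G12D/+, whereas the 4 NPmut mice carried both. The genotype label of the NrasG12D samples spells the allele G21D, whereas their titles and descriptions give G12D, which is used here. Each mutant allele sits in its own gene behind a stop cassette that Cre removes, and the share of cells in which this had happened was not measured here. pI-pC is a synthetic RNA that induces interferon. Control, p53mut, and NrasG12D mice were given it at about 6 weeks of age, 3 times at 100 μg. The NPmut mice, to which they were age matched, got no pI-pC and were moribund. The double genotype, the missing injections, and the stage of disease cannot be told apart in any comparison with NPmut mice.

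p53 is a transcription factor that is held at a low level by MDM2, its ubiquitin ligase, and that accumulates when DNA is damaged or an oncogene is active. Its targets arrest the cell cycle, start apoptosis through the BCL-2 family, restrain growth signaling, and feed back on p53 itself. R172H is a missense change in the DNA-binding domain of p53, and the study calls it a structural mutant. HSPCs are among the cells whose self-renewal and survival p53 is known to limit. In the numbering of the transcripts with 391 and 382 codons (stop included), the arginine codon 172 of the reference lies in exon 5 at chr11:69588511-69588513 of GRCm38 on the plus strand and is shown in capitals because it is the codon that R172H changes.
Trp53 codon 172: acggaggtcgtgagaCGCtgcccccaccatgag
The counts do not separate the mutant from the wild-type allele, and Trp53 values are sums over both.

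p53 binds pairs of a degenerate 10-base element, which reads the same on either strand. The RefSeq promoter windows of GRCm38.p6, which reach from 250 bases before to 50 after a start, were searched for such pairs of the p53 consensus with a spacer of at most 13 bases and at most 2 mismatches in all. A pair was present in 3 of the 8 members that have a window (37.5%), in 11.9% of the 59 further p53 targets that have one, and in 4.71% of 27025 genes. Pmaip1 and Trp53inp1 have no window in the table. For each of these 3 genes, the pair with the fewest mismatches is shown with its elements in capitals, so that its letters can be set beside the gene's values below. Other pairs within the rule are not marked. In Cdkn1a, the second element shown also forms such a pair with the bases that directly follow it. Cdkn1a has 2 windows, and the other holds no pair.
Cdkn1a, chr17:29090906-29090937, plus strand, 0 mismatches: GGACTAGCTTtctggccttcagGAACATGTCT
Ccng1, chr11:40755462-40755481, minus strand, 1 mismatch: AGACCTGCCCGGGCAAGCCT
Bax, chr7:45467079-45467099, minus strand, 2 mismatches: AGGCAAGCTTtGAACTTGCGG
A match describes these letters only, and binding of p53 was not measured.

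On GRCm38, Trp53 (ENSMUSG00000059552) lies at chr11:69580359-69591873 on the plus strand, Mdm2 (ENSMUSG00000020184) at chr10:117688875-117710758 and Ccng1 (ENSMUSG00000020326) at chr11:40748552-40755311, both on the minus strand, and Cdkn1a (ENSMUSG00000023067) at chr17:29090976-29100727 on the plus strand. Bbc3 (ENSMUSG00000002083, chr7:16308393-16318205, plus) and Bax (ENSMUSG00000003873, chr7:45461697-45466898, minus) share a chromosome, as do Sesn2 (ENSMUSG00000028893, chr4:132492032-132510501, minus) and Trp53inp1 (ENSMUSG00000028211, chr4:11156431-11174379, plus). Phlda3 (ENSMUSG00000041801) lies at chr1:135766119-135769136 on the plus strand, and Pmaip1 is ENSMUSG00000024521. A pseudogene, Trp53-ps, is annotated, and how reads shared with it were assigned is not known.

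Totals of 12576174 to 29124022 reads per mouse were counted on genes. The sorted fraction was checked against its markers. Kit had at least 4468 and Myb at least 16204 counts in every library, whereas Cd79a and Ms4a1 of B cells and Cd3e, Cd3d, and Cd8a of T cells had at most 12. Pax5 of B cells reached 53 counts, and Nkg7 of T and NK cells had 517 to 1501. Summed CPM (read counts relative to TMM-scaled library size) of 6 monocyte genes were 158 to 176 in control and 354 to 773 in NPmut mice, and those of 4 megakaryocyte genes were 95.2 to 152 and 11.4 to 62.0. Of these markers, 5 of the 6 were higher and 4 of the 4 lower in NPmut than in control mice, where 5.38% of all genes tested were higher and 5.54% lower. Sums also did not overlap for 5 HSPC genes (2196 to 2481 in control and 1860 to 2103 in NPmut mice), 7 erythroid genes (503 to 732 and 263 to 499), and 5 stromal and endothelial genes (81.7 to 101 and 125 to 155). Of the HSPC genes 1 was higher and 2 lower, and of the erythroid genes 0 and 2. Of 2 stromal and endothelial genes tested, 1 was higher and 1 lower. Pecam1, at 76.0 to 153 CPM over all libraries, made up most of their sum. The part of these marker differences in the results below was not tested, and in bulk RNA fewer cells of a type and less RNA per cell cannot be told apart. Reads on 1733 olfactory and vomeronasal receptor genes, a measure of background, were 148 ± 46.1 CPM of library totals in control (SD, n = 3), 103 ± 40.9 in p53mut (n = 3), 43.4 ± 3.76 in NrasG12D (n = 3), and 36.0 ± 21.1 in NPmut libraries (n = 4). At that density per exonic base, background would make up between 0.0881% (Trp53) and 3.75% (Phlda3) of a member's control counts.

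Per exonic length (RPKM), Trp53 had the highest level of the 10 genes in control mice, 29.3 ± 1.47 (SD, n = 3). It was followed by Ccng1 at 19.6 ± 1.28, Mdm2 at 13.2 ± 1.57, and Bax at 9.75 ± 0.322. Trp53inp1, Sesn2, and Bbc3 lay at 2.02 ± 0.377, 2.01 ± 0.503, and 1.58 ± 0.415 RPKM, and Cdkn1a (1.06 ± 0.222), Pmaip1 (0.899 ± 0.0677), and Phlda3 (0.685 ± 0.0801) were the lowest. The first 4 were separated by more than their SDs, whereas from Trp53inp1 down to Pmaip1 the SDs of each gene and the next overlapped. Phlda3 has the fewest counts of the 10, 4 to 31 per library.

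**Figure D1:**
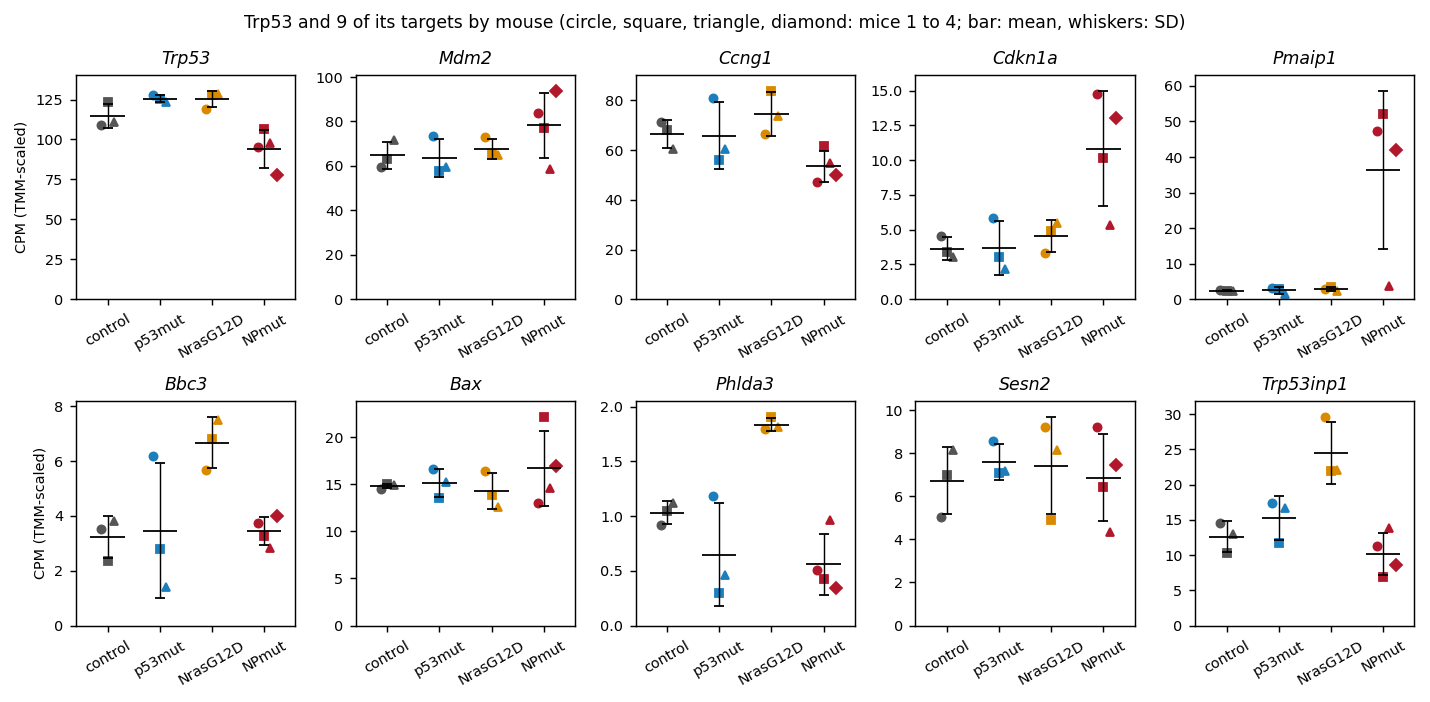
CPM of Trp53 and 9 targets (y axes, from 0) in each of 13 mice by genotype (x axes). Each symbol is a mouse, bars are group means, and whiskers are SDs. Pmaip1 lay between 42.0 and 52.2 CPM in 3 NPmut mice and at 3.59 in mouse 3, and Phlda3, Bbc3, and Trp53inp1 were above all control mice in the 3 NrasG12D mice.

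In NPmut compared with control HSPCs, 2 of the 10 genes passed the test and both were higher, Pmaip1 and Cdkn1a. Of all 17795 genes tested, 10.9% passed in either direction and 5.38% passed as higher, so that a count of 2 says little about the 10 genes as a set. Pmaip1 encodes NOXA, a BH3-only protein that blocks the survival factor MCL-1, and Cdkn1a encodes p21, an inhibitor of cyclin-dependent kinases. The other 8 genes did not pass, and the median log2 fold change of the 10 was 0.06 against 0.01 over all genes tested.

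Trp53 itself was at 109, 123, and 111 CPM in control mice 1 to 3 and at 95.01, 106, 97.5, and 78.0 CPM in NPmut mice 1 to 4. All 4 NPmut mice lay below the control mice, although mouse 2 was near them, and a lower position without overlap was seen for 11.5% of all genes. The log2 fold change was -0.28 (SE 0.10), a 1.21-fold lower level, and did not pass the test (adjusted p = 0.103). The call depended on mouse 2 and on the scaling. Without mouse 2 the log2 fold change was -0.34 with an adjusted p of 0.0219, and when counts were scaled by library totals alone it was -0.40 with an adjusted p of 0.0237, a scaling that shifts the median of all genes by -0.12. With receptor-gene reads as a covariate it was -0.026 (adjusted p = 0.939).

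Cdkn1a was at 4.54, 3.40, and 3.01 CPM in control mice and at 14.8, 10.2, 5.31, and 13.1 CPM in NPmut mice 1 to 4. Mouse 3 was closest to the control mice, and the groups did not overlap, which was seen with NPmut mice higher for 10.4% of all genes. The log2 fold change was 1.57 (SE 0.38), a 2.96-fold higher level (adjusted p = 0.0161). It was higher in 4 of 4 NPmut mice, but the call did not survive the loss of control mouse 2 (adjusted p = 0.0634) or control mouse 3 (adjusted p = 0.0822), where the log2 fold changes were 1.52 and 1.44. An annotated transcript on the opposite strand, AC167363.2, shares 273 exon bases with Cdkn1a and had 0 to 10 counts, against 37 to 292 for Cdkn1a. Whether reads were counted by strand is not stated.

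Pmaip1 was at 2.59, 2.29, and 2.24 CPM in control mice, from 45, 37, and 44 counts. In NPmut mice 1 to 4 it was at 47.5, 52.2, 3.59, and 42.0 CPM, from 939, 1354, 67, and 495 counts. Mice 1, 2, and 4 were far above every other library, whereas mouse 3 lay just above the highest NrasG12D mouse, at 3.34 CPM. The log2 fold change over all 4 mice was 3.93 (SE 0.71, 15.3-fold, adjusted p = 0.0051), and without mouse 3 it was 4.31 (adjusted p = 1.05e-06). Leaving out any 1 of the 7 libraries gave log2 fold changes of 3.70 to 4.31, with adjusted p-values of at most 0.0364.

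Both calls were lost when receptor-gene reads entered the model as a covariate, a measure that differs between the groups and so cannot be told apart from them: the log2 fold change was 0.72 for Cdkn1a (adjusted p = 0.514) and 3.07 for Pmaip1 (adjusted p = 0.174). At the density of receptor-gene reads, background would give 2.44% of the Cdkn1a and 2.87% of the Pmaip1 counts of control mice, and 0.241% and 0.0524% of those of NPmut mice.

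None of the other members passed the test, although single NPmut mice lay outside the control range. Mdm2, the main brake on p53, was at 59.7 to 71.5 CPM in control mice and at 83.6, 76.9, 58.7, and 93.7 CPM in NPmut mice 1 to 4 (log2 fold change 0.27, SE 0.14, adjusted p = 0.257). Mice 1, 2, and 4 were above all control mice and mouse 3 below them. Ccng1, a cyclin that recruits a phosphatase to MDM2, was at 60.4 to 71.3 CPM in control and at 47.3, 61.6, 54.8, and 49.96 CPM in NPmut mice (log2 fold change -0.32, SE 0.14, adjusted p = 0.162), with mouse 2 inside the control range. With library totals the Ccng1 value was -0.44 and passed (adjusted p = 0.0424), and with receptor-gene reads as a covariate it was -0.079 (adjusted p = 0.866).

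Bbc3 encodes PUMA, the other BH3-only target, and Bax the pore-forming effector on the mitochondrial membrane. Bbc3 was at 3.51, 2.35, and 3.82 CPM in control and at 2.84 to 3.99 CPM in NPmut mice, and its log2 fold change of 0.09 had a 95% interval of -0.71 to 0.90. Bax was at 14.5 to 15.01 CPM in control and at 13.04, 22.1, 14.6, and 17.0 CPM in NPmut mice (log2 fold change 0.17, interval -0.20 to 0.55). Neither passed the test over all 4 NPmut mice, nor without NPmut mouse 3, in which Pmaip1 was lowest.

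Sesn2, a sensor of leucine that restrains mTORC1, was at 5.06 to 8.15 CPM in control and 4.34 to 9.20 CPM in NPmut mice (log2 fold change 0.03, interval -0.56 to 0.61). Phlda3, which competes with AKT for membrane lipids, was at 0.920, 1.05, and 1.12 CPM in control and at 0.505, 0.424, 0.965, and 0.339 CPM in NPmut mice (log2 fold change -0.86, SE 0.47, adjusted p = 0.276). Mouse 3 was the NPmut mouse within the control range. Trp53inp1, a stress protein that promotes autophagy and p53 activity, was at 14.6, 10.3, and 13.1 CPM in control and at 11.3, 6.94, 13.8, and 8.57 CPM in NPmut mice (log2 fold change -0.32, SE 0.23, adjusted p = 0.422).

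**Figure D2:**
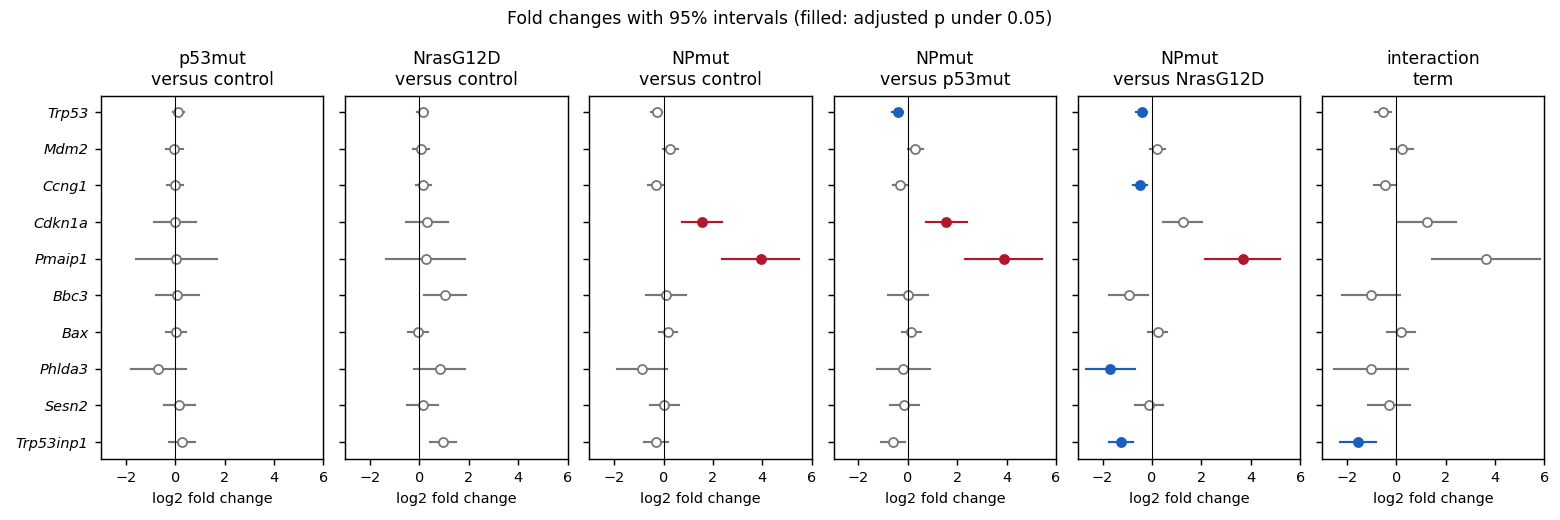
log2 fold changes of the 10 genes (x axes) with 95% intervals (lines) in 5 comparisons and the interaction term, from the fit to all 13 libraries. Filled points passed at an adjusted p-value under 0.05: 0 in p53mut or NrasG12D against control, 2 in NPmut against control, 3 against p53mut, 5 against NrasG12D, and 1 in the interaction.

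The mutant p53 allele alone was compared with control next. In p53mut mice 0 of the 10 genes passed edgeR's test, 0 had an unadjusted p-value under 0.05, and DESeq2 called 0. Over all genes tested, 0% passed edgeR's test and 2.33% had an unadjusted p-value under 0.05. With the replicate number as a block in a fit to these 6 libraries alone, 56 of 16685 genes passed, and 0 of the 10. The log2 fold changes lay between -0.68 for Phlda3 and 0.27 for Trp53inp1, with a median of 0.04. Cdkn1a was at 5.83, 3.02, and 2.14 CPM in p53mut mice 1 to 3, and its log2 fold change of -0.0011 had an interval of -0.85 to 0.85, so that smaller changes in either direction could not be detected. Mdm2, at 73.5, 57.8, and 59.6 CPM, gave a narrower interval of -0.35 to 0.30. Trp53 was at 128, 125, and 124 CPM in p53mut mice 1 to 3, above all control mice in each p53mut mouse (log2 fold change 0.13, SE 0.11, adjusted p = 1.00), a position seen for 5.47% of all genes.

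p53mut mouse 1 stood above mice 2 and 3. Bbc3 was at 6.20, 2.80, and 1.39 CPM and Phlda3 at 1.18, 0.295, and 0.463 CPM in mice 1 to 3, on 4 to 84 counts. Ccng1 was at 81.1, 56.0, and 60.4 CPM. In each of the 10 genes mouse 1 was the highest of its group. It was also the sole p53mut library with Y-linked RNA. With sex as a term 0 of the 10 genes passed against control, as without it, and the part of sex in the values of mouse 1 was not tested. Without mouse 1 the log2 fold change of Bbc3 against control was -0.64 in place of 0.09.

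In NrasG12D mice 0 of the 10 genes passed edgeR's test against control and 2 had an unadjusted p-value under 0.05 (9.23% of all genes), whereas DESeq2 called 1 (and 154 of all genes). Of all genes tested, 0.00562% passed edgeR's test. The higher values were in Trp53inp1, Bbc3, and Phlda3, each without overlap with control, a position seen for 10.9% of all genes. Trp53inp1 was at 29.5, 21.9, and 22.1 CPM (log2 fold change 0.95, SE 0.24, unadjusted p = 0.0015, adjusted p = 0.199). Bbc3 was at 5.67, 6.81, and 7.51 CPM (log2 fold change 1.04, SE 0.40, adjusted p = 0.426). Phlda3 was at 1.79, 1.90, and 1.81 CPM from 28 to 31 counts (log2 fold change 0.83, SE 0.49, adjusted p = 0.663).

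Trp53inp1 was the gene that DESeq2 called (adjusted p = 0.0387). It also passed without a filter on low counts (adjusted p = 0.0025) and with only control and NrasG12D libraries in the fit (adjusted p = 0.0183), while its log2 fold change stayed between 0.90 and 0.98 under these and the other settings that kept all 6 mice. Cdkn1a, at 3.30, 4.91, and 5.50 CPM, and Pmaip1, at 2.95, 3.34, and 2.27 CPM, had log2 fold changes of 0.32 (interval -0.53 to 1.17) and 0.27 (interval -1.33 to 1.87). The Pmaip1 interval rests on the spread over all 13 libraries and is not that of the compared mice alone. The SD of its log2 CPM was 0.107 in control, 0.573 in p53mut, 0.274 in NrasG12D, and 1.84 in NPmut mice. Trp53, Mdm2, Ccng1, Bax, and Sesn2 changed by -0.05 to 0.16 on the log2 scale.

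Summed CPM of 14 interferon-stimulated genes also did not overlap between NrasG12D and control mice. Singly, 0 of the 14 passed edgeR's test in this comparison, as did 0.00562% of all genes. The sums were 99.8 to 116 in control, 93.7 to 124 in p53mut, 192 to 279 in NrasG12D, and 81.3 to 101 in NPmut mice. The 3 NrasG12D mice were thus above all other mice for this sum and for Trp53inp1 and Phlda3, and for Bbc3 above all but p53mut mouse 1. Control, p53mut, and NrasG12D mice had received pI-pC, and NPmut mice had not. The part of the interferon response in the values of these 3 targets was not tested.

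**Figure D3:**
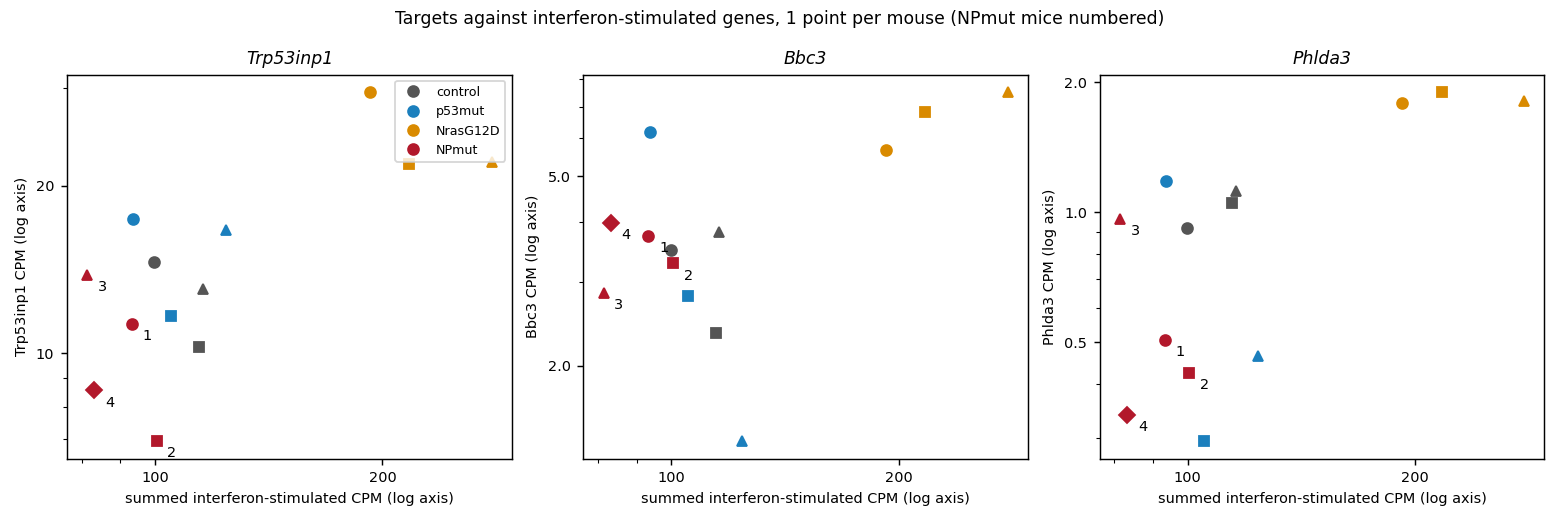
CPM of Trp53inp1, Bbc3, and Phlda3 (y axes, log scale) against the summed CPM of 14 interferon-stimulated genes (x axes, log scale), with 1 point for each of 13 mice colored by genotype. The 3 NrasG12D mice lie at 192 to 279 summed CPM, to the right of all other mice, and hold the highest values of Trp53inp1 and Phlda3.

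Compared with NrasG12D mice, NPmut mice differed in 5 of the 10 genes, 1 higher and 4 lower, when 8.88% of all genes passed, 3.92% as higher and 4.97% as lower. The control and NPmut libraries recur in several comparisons, which are therefore not independent of each other. Pmaip1 was higher (log2 fold change 3.67, SE 0.70, adjusted p = 0.0081). Trp53inp1 changed by -1.27 (SE 0.23, adjusted p = 0.0040), a 2.41-fold lower level. Every NPmut mouse, at 6.94 to 13.8 CPM, lay below every NrasG12D mouse, at 21.9 to 29.5 CPM. These 2 calls held without any 1 of the 7 libraries, at adjusted p-values of at most 0.0465 for Pmaip1 and 0.0277 for Trp53inp1.

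Phlda3 was 3.23-fold lower (log2 fold change -1.69, SE 0.46, adjusted p = 0.0344), Ccng1 1.39-fold lower (-0.48, SE 0.14, adjusted p = 0.0424), and Trp53 1.33-fold lower (-0.41, SE 0.10, adjusted p = 0.0241), each without overlap between the groups. When 1 of the 7 libraries was left out, the calls of Ccng1 and Phlda3 were lost in 6 of the 7 fits and that of Trp53 in 3. The log2 fold changes stayed at -0.34 to -0.48 for Trp53, -0.38 to -0.57 for Ccng1, and -1.56 to -2.08 for Phlda3. Without NrasG12D mouse 1, 2, or 3, the adjusted p-value of Trp53 was 0.0518, 0.104, or 0.0968, that of Ccng1 was 0.0583, 0.198, or 0.109, and that of Phlda3 was 0.0935, 0.105, or 0.0898. Ccng1 was also lost without NPmut mouse 1 (0.102), mouse 3 (0.0586), or mouse 4 (0.0609), and Phlda3 without mouse 1 (0.0787), mouse 2 (0.0682), or mouse 4 (0.0598). Trp53 also lost its call without the filter on low counts (0.0584). In a fit to NPmut and NrasG12D libraries alone, 2 genes were called, Pmaip1 and Trp53inp1.

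Cdkn1a was higher than in NrasG12D mice by 1.24 on the log2 scale (SE 0.37) but did not pass (adjusted p = 0.0513). Its lowest NPmut value, 5.31 CPM in mouse 3, lay below the highest NrasG12D value of 5.50 CPM, and without mouse 3 the gene passed (log2 fold change 1.47, adjusted p = 0.0126). It also passed with DESeq2 (1.24, adjusted p = 0.0115) and without the filter on low counts (1.25, adjusted p = 7.66e-04). Bbc3 was lower in every NPmut mouse than in every NrasG12D mouse (log2 fold change -0.95, SE 0.37, adjusted p = 0.126), as were 11.2% of all genes. Of the 14 interferon-stimulated genes, 10 were lower and 0 higher in this comparison, with a median log2 fold change of -1.83, and the share of the missing pI-pC injections in these differences was not tested.

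Compared with p53mut mice, NPmut mice differed in 3 of the 10 genes, against 9.95% of all genes (4.81% as higher and 5.14% as lower). Cdkn1a (log2 fold change 1.57, SE 0.38, adjusted p = 0.0176) and Pmaip1 (3.89, SE 0.72, adjusted p = 0.0058) were higher and Trp53 had a lower level (-0.41, SE 0.10, adjusted p = 0.0207). For Trp53, 78.0 to 106 CPM in NPmut mice lay below 124 to 128 CPM in p53mut mice, which carry the same p53 allele, a lower position without overlap that was seen for 10.5% of all genes. The highest p53mut value of Cdkn1a, 5.83 CPM in mouse 1, lay above NPmut mouse 3. Trp53 lost its call without p53mut mouse 1 (adjusted p = 0.0767), 2 (0.0608), or 3 (0.0629), and Cdkn1a without p53mut mouse 2 (0.0620) or 3 (0.107) or NPmut mouse 1 (0.0520). Without NPmut mouse 3, Mdm2 (log2 fold change 0.41, adjusted p = 0.0489) and Trp53inp1 (-0.77, adjusted p = 0.0399) passed in addition. Without the filter on low counts Trp53 did not pass (0.0843), and in a fit to NPmut and p53mut libraries alone 1 gene passed, Pmaip1. With receptor-gene reads as a covariate, 0 of the 10 genes passed.

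The interaction term (NPmut minus p53mut minus NrasG12D plus control, on the log2 scale) compares the difference of NPmut mice from control with the sum of the differences of both single mutants, and it carries the lack of pI-pC and the disease stage of NPmut mice with it. It passed in 1 of the 10 genes, Trp53inp1, against 1.74% of all genes (1.23% with a negative and 0.506% with a positive term). The value was -1.54 (SE 0.34, adjusted p = 0.0361), since the single mutants were at +0.27 and +0.95 and NPmut mice at -0.32 against control. The call was lost without 10 of the 13 libraries (adjusted p = 0.0522 to 0.124), which include each control and each NrasG12D mouse, p53mut mice 1 and 3, and NPmut mice 1 and 4, and with library totals (adjusted p = 0.0520). The terms of Pmaip1 (3.62, SE 1.00, adjusted p = 0.0932) and Trp53 (-0.54, SE 0.15, adjusted p = 0.0863) did not pass edgeR's test, and DESeq2 called both. Pmaip1 passed without NPmut mouse 3 (adjusted p = 2.00e-04) and Trp53 without NPmut mouse 2 (adjusted p = 0.0177).

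The split of the NPmut mice in Pmaip1 was also present in the immediate-early genes, which growth factor signaling and cell handling switch on within minutes. Of 14 such genes, 9 were higher and 0 lower in NPmut than in control mice, with a median log2 fold change of 2.06, where 5.38% of all genes were higher. Their summed CPM were 1276, 1113, 302, and 2006 in NPmut mice 1 to 4, against 300 to 344 in control, 250 to 466 in p53mut, and 262 to 343 in NrasG12D mice. Mouse 3 lay at the control level for this sum, had the lowest Cdkn1a, Pmaip1, and Mdm2 of its group, and was the sole NPmut mouse in which Mdm2 was below the control mice. The part of this program in the values of Pmaip1 and Cdkn1a was not tested.

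**Figure D4:**
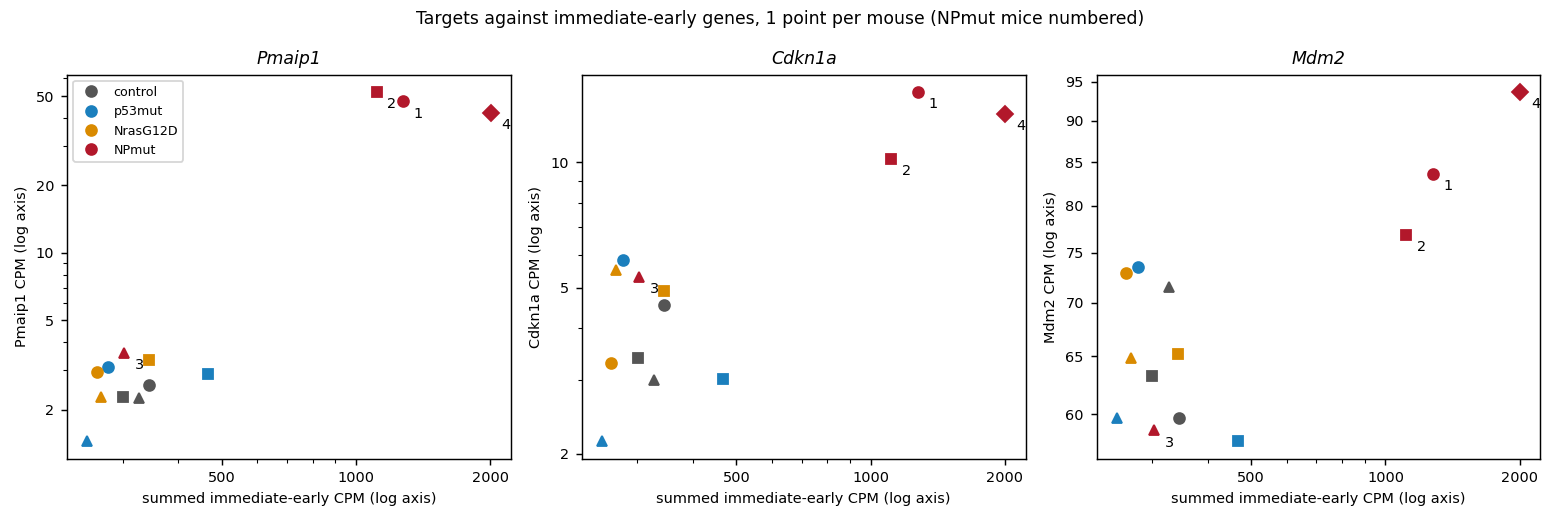
CPM of Pmaip1, Cdkn1a, and Mdm2 (y axes, log scale) against the summed CPM of 14 immediate-early genes (x axes, log scale), with 1 point for each of 13 mice colored by genotype and NPmut mice numbered. NPmut mice 1, 2, and 4 lie at 1113 to 2006 summed CPM with the highest values of all 3 targets, and NPmut mouse 3 lies at 302 among the other genotypes.

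Atf4 and its targets, which answer to amino acid and protein-folding stress and can also switch on Pmaip1 and Sesn2, were counted beside it. Of 14 genes tested in this list, 2 were higher in NPmut mice, Cebpb (log2 fold change 1.16, adjusted p = 0.0366) and Atf4 (0.72, adjusted p = 0.0201), and Asns, the asparagine synthetase, was lower (-1.19, adjusted p = 0.0353), beside 5.38% higher and 5.54% lower of all genes. Atf4 was at 245, 322, 157, and 261 CPM in NPmut mice 1 to 4 and at 129 to 168 CPM in control mice, so that mouse 3 was again within the control range.

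The genes with the most similar profile were sought for Trp53 and for both genes that passed against control, by the root mean square difference of log2 CPM, centered on the control mean, over the 13 libraries. Pmaip1 was nearest to Nr4a1 (0.731), Dusp5 (0.743), and Nr4a3 (0.765). Nr4a1 is a member of the immediate-early list, and it was at 198, 90.3, 6.27, and 125 CPM in NPmut mice 1 to 4 and at 1.95 to 4.51 CPM in control mice. Cdkn1a was nearest to Dglucy (0.319), Zc3h12a (0.369), and Gimap4 (0.391), and Trp53 to Rab10 (0.0718), Sacm1l (0.0907), and Ipo13 (0.0964). Dglucy, itself a listed p53 target, was at 13.3 to 23.6 CPM in control and at 42.8 to 51.3 CPM in NPmut mice, with mouse 3 close to the others.

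Beyond the 10 genes, 65 of 70 further p53 targets could be tested. In NPmut compared with control mice, 11 were higher, 8 were lower, and 46 did not pass (5.38% of all genes were higher and 5.54% lower), with a median log2 fold change of 0.09. Of 11 cell cycle genes, 3 were higher and 1 lower, of 12 apoptosis genes 1 was higher (Bid) and 1 lower (Aen), and of 5 genes that feed back on p53, 0 were higher and 2 lower. Of 7 DNA repair genes and of 12 metabolism and stress genes, 1 each was higher and 0 lower. In p53mut and in NrasG12D mice, 0 of the 65 passed against control. Against NrasG12D mice 7 were higher and 8 lower in NPmut mice (3.92% and 4.97% of all genes), against p53mut mice 8 and 5 (4.81% and 5.14%), and in the interaction 2 and 3 (0.506% and 1.23%).

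Among the targets that passed, the 4 with the largest rises were Epha2, an ephrin receptor (log2 fold change 3.39, SE 0.46, adjusted p = 5.30e-04), Lif, a cytokine of the IL-6 family (3.03, SE 0.87, adjusted p = 0.0368), Plk3, a polo-like kinase (2.14, SE 0.42, adjusted p = 0.0051), and Sulf2, an extracellular sulfatase (1.85, SE 0.46, adjusted p = 0.0201). Epha2 was at 0.230, 0.309, and 0.357 CPM in control and at 3.39, 3.66, 3.43, and 2.29 CPM in NPmut mice 1 to 4. In contrast to Pmaip1, Epha2 and Sulf2, at 9.10, 8.18, 14.5, and 11.7 CPM, were not lowest in NPmut mouse 3. Plk3, at 7.53, 8.33, 2.52, and 11.5 CPM, and Lif, at 3.03, 1.04, 0.483, and 3.65 CPM, were lowest in mouse 3.

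The 4 largest falls among them were in Eda2r, Ptpn14, Tgfa, and Zmat3. Eda2r, a receptor of the TNF family, had 18, 16, and 10 counts in control mice, 14, 21, and 12 in NrasG12D mice, 13, 3, and 0 in p53mut mice, and 0, 1, 0, and 0 counts in NPmut mice (adjusted p = 0.0067). Zmat3, an RNA-binding protein of the p53 response, was at 7.82, 5.62, and 9.38 CPM in control and at 2.27, 1.12, 3.33, and 2.04 CPM in NPmut mice (log2 fold change -1.80, SE 0.37, adjusted p = 0.0062). In p53mut mice it was at 7.82, 2.95, and 3.94 CPM. Ptpn14, a phosphatase that restrains YAP (log2 fold change -2.85, SE 0.41, adjusted p = 8.98e-04), was at 12.4 to 21.1 CPM in control and at 3.89, 1.31, 2.47, and 0.679 CPM in NPmut mice. Tgfa, a ligand of the EGF receptor, rests on 0 to 20 counts per library (adjusted p = 0.0191). Epha2, Eda2r, and Ptpn14 are also in a list that the study drew in part from these libraries, which makes their direction no independent evidence. The same holds for the other targets named, since the lists were chosen with earlier results of these data known.

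Trp53cor1, chosen after its values were seen, is a noncoding RNA known as lincRNA-p21 that lies 11796 bases from Cdkn1a at chr17:29057430-29079179 of GRCm38 on the minus strand. It was at 2.87, 1.92, and 2.34 CPM in control, 1.48, 0.590, and 1.74 CPM in p53mut, 4.34, 3.80, and 2.59 CPM in NrasG12D, and 0.809, 0.347, 1.02, and 0.933 CPM in NPmut mice. Its level in NPmut mice was below that of every control and NrasG12D mouse (log2 fold change against control -1.64, SE 0.42, adjusted p = 0.0211), while that of its neighbor Cdkn1a was higher.

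**Figure D5:**
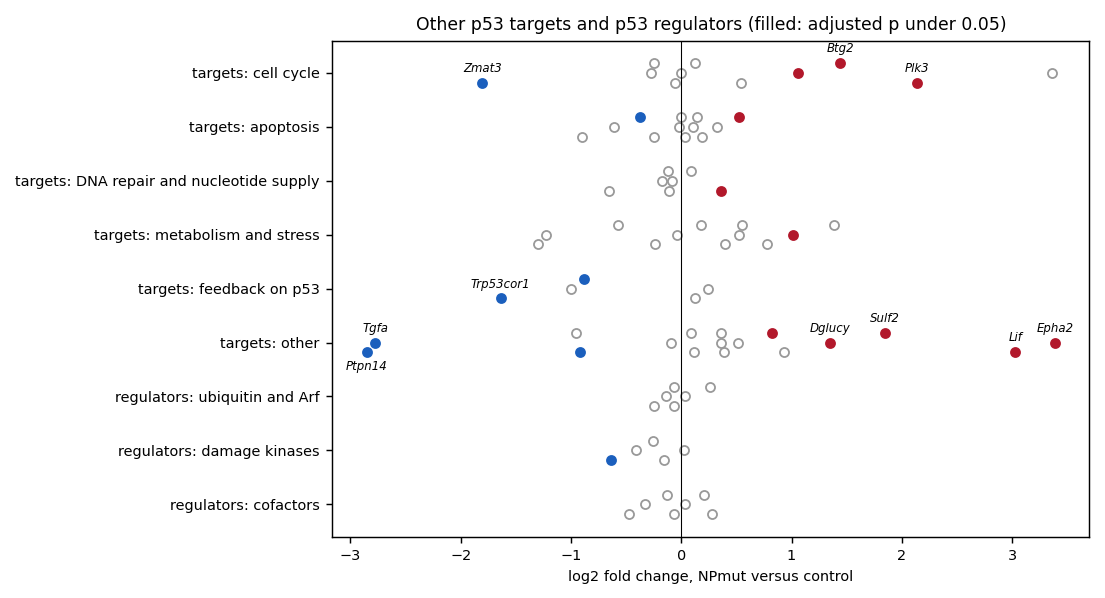
log2 fold changes of NPmut against control mice (x axis) for the further p53 targets and p53 regulators by role (rows), with 1 point per gene and filled points for an adjusted p-value under 0.05. Filled points lie on both sides of 0, 11 targets higher and 8 lower with Eda2r, which had 1 count in all NPmut libraries and is not drawn.

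Of 21 regulators and relatives of p53, 18 could be tested, and Trp63, Trp73, and Cdkn2a were too low. Against control, 1 passed in NPmut mice, Chek2, when 10.9% of all genes passed (5.54% as lower). Chek2 encodes a kinase that phosphorylates p53 after DNA breaks, and its level fell by 0.64 on the log2 scale (SE 0.13, adjusted p = 0.0054). It was at 26.7 to 34.2 CPM in control and at 18.0 to 21.3 CPM in NPmut mice. Such a lower position without overlap was seen for 11.5% of all genes. In p53mut and NrasG12D mice 0 of the 18 passed against control, beside 0% and 0.00562% of all genes.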

How the data were processed

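The authors deposited raw counts of reads per gene in one table with a column per mouse, which was mapped to 13 labeled samples. Per the submitters' processing notes, STAR 2.6.1d, R 3.6.1, DESeq2 1.26.0, and GRCm38.p6 were used. The counting program, its strand setting, and the annotation are not given in the sources used here. Libraries were made with a stranded low-input total RNA kit. Of the identifiers, 54809 are in GENCODE M21, which gave names, lengths, and coordinates.

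The test was edgeR's quasi-likelihood test (edgeR 4.0.16 under R 4.3.3, robust, TMM factors, filterByExpr), fitted with a mean per group on all 13 libraries, with Benjamini-Hochberg adjustment over the 17795 genes tested. A gene passed at an adjusted p-value under 0.05. Intervals are 95% intervals. CPM use TMM-scaled totals, RPKM library totals, and log2 CPM a prior count of 2. The groups do not overlap where every CPM of one lies above every CPM of the other. P-values set a difference between groups against the spread between mice, which was estimated over all 13 libraries. The script was tested on simulated data.

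The members and gene lists were chosen with earlier results of these data known. Of each further list, at most the 4 passing genes with the largest change in each direction were named by rule. Bid, Aen, and Trp53cor1 were chosen after their values were seen. Alternatives tried were another test (DESeq2 1.42.0), other library scaling (RLE, totals) and low-count filters, only the compared groups, each library left out, and sex, receptor-gene reads, or the replicate number as a term. Same-numbered control and p53mut mice deviated together (correlations of 0.152 to 0.166 in all 3 pairs), so their comparison was also fitted with a replicate block, chosen after this was seen. Between the other groups, same-numbered mice had correlations of -0.113 to 0.294. There, 0 (p53mut with NrasG12D) to 4 (p53mut with NPmut) of 6 samples correlated best with their own number.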

Additional observations from a re-analysis of the deposited data

Results flagged for a closer look

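Pmaip1 in NPmut mouse 3 stood apart from the other 3 NPmut mice. On the log2 CPM scale, its gap to the next mouse was 0.918 of the range of the group, above the critical value of 0.829 of Dixon's test for 4 samples, which chance exceeds in about 5% of groups. On the linear CPM scale the ratio was 0.790, below that value. None of the other 9 genes exceeded it in this group, with ratios of at most 0.641 (Phlda3, also mouse 3). The rate of about 5% is for a single gene, and no adjustment was made for the 10 genes looked at.

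The level of Trp53inp1 in NPmut mice differed from the sum of the differences of p53mut and NrasG12D mice from control, with an interaction of -1.54 on the log2 scale (SE 0.34, adjusted p = 0.0361 by edgeR's quasi-likelihood test). The call depended on single libraries, as given above, and NPmut mice also differ from the other groups in pI-pC treatment and disease stage, which cannot be told apart from the genotype.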

How the results depend on the processing

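Of the values of single genes recomputed under a planned setting or without a library, 863 kept their direction and side of the threshold, 49 lost and 16 gained a call, and 55 turned their sign. The cause of the changes below was not tested. The number of all genes called moved as well, up in some fits to fewer libraries and down in others. With DESeq2, 1 of the 10 genes was called in NrasG12D against control (154 of 17795 genes in all, against 1 with edgeR) and 3 in the interaction (914 against 309). With library totals, 4 were called in NPmut against control (1986 genes in all, against 1944) and 0 in the interaction (224). Without the filter on low counts, 1 was called in NrasG12D against control (273 of 44944) and 2 in NPmut against p53mut (2312). With only the compared groups in the fit, 1 was called in NrasG12D against control (239 of 16492), 2 in NPmut against NrasG12D (637 of 16525), and 1 in NPmut against p53mut (648 of 16594). With receptor-gene reads as a covariate, 0 were called in NPmut against control (746) and 0 against p53mut (957). Sex as a term changed no call. Without any 1 library, the number called ranged from 1 to 3 in NPmut against control, from 2 to 5 against NrasG12D, from 1 to 5 against p53mut, and from 0 to 2 in the interaction, and was 0 in both single mutants against control.

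With the replicate number as a block, 1 gene was called in NrasG12D against control (Trp53inp1, adjusted p = 0.0385, with 50 of 17795 genes in all) and 3 in NPmut against NrasG12D (2368 in all), where Ccng1 and Phlda3 had adjusted p-values of 0.0622 and 0.0559. In these groups the mice share only a number, and 2 of 6 and 3 of 6 samples correlated best with their own number. In control and p53mut mice, where 6 of 6 did, the block changed no call among the 10 genes, and a fit to those 6 libraries alone called 0 of the 10 and 56 of 16685 genes. The sign turned under the block for Sesn2 in NPmut against control (-0.053) and for Pmaip1 in p53mut against control (-0.063, and -0.0052 in the fit to 6 libraries), as it did for Bbc3 in the latter fit (-0.079).

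No other value that turned its sign had passed the test. In NPmut against control these were, with library totals, Bbc3 (-0.033) and Sesn2 (-0.10), with at least 10 counts in every library Sesn2 (-0.0082), and with the receptor-gene covariate Mdm2 (-0.18), Bbc3 (-0.13), and Sesn2 (-0.63). In NPmut against p53mut, Bbc3 was at -0.0039 with DESeq2 and with only the compared groups, -0.0037 with RLE factors, -0.082 with library totals, -0.012 with at least 10 counts in every library, and -0.18 with the covariate, under which Mdm2 was at -0.048 and Phlda3 at 0.27. In p53mut against control, Cdkn1a was at 5.14e-04 with DESeq2, and Ccng1 at 0.046 and Pmaip1 at -0.13 with the covariate. In NrasG12D against control the covariate gave -0.30 for Cdkn1a, -0.28 for Mdm2, -0.37 for Pmaip1, 0.10 for Bax, and -0.34 for Sesn2.

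Without 1 library, the log2 fold changes that turned their sign ranged, in NPmut against control, from -0.088 to 0.24 for Bbc3, from -0.0020 to 0.26 for Bax, and from -0.16 to 0.19 for Sesn2. In p53mut against control they ranged from -0.50 to 0.29 for Cdkn1a, -0.14 to 0.057 for Mdm2, -0.19 to 0.088 for Ccng1, -0.15 to 0.34 for Pmaip1, -0.64 to 0.48 for Bbc3, and -0.038 to 0.11 for Bax. In NrasG12D against control they ranged from -0.16 to 0.024 for Bax and -0.038 to 0.36 for Sesn2, in NPmut against NrasG12D from -0.34 to 0.061 for Sesn2, and in NPmut against p53mut from -0.39 to 0.73 for Bbc3, -0.034 to 0.23 for Bax, -0.57 to 0.54 for Phlda3, and -0.34 to 0.017 for Sesn2. Depth limits Phlda3, with 4 to 31 counts per library, and Bbc3, Pmaip1, and Cdkn1a outside NPmut mice, with 24 to 116.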
